A study of Mus musculus with 24 samples.

Results

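The 10 genes described here are the p53 targets Cdkn1a, Mdm2, Ccng1, Gdf15, Eda2r, Gadd45a and Phlda3 and the oxidative stress genes Hmox1, Nqo1 and Gclc, out of 54532 genes counted in each sample. They were selected on measured values of these same counts, namely SN-011 against control in each tissue and, for Gadd45a and Hmox1, tongue against muscle. Those differences are therefore given as a description with no test, whereas the other differences between tissues were tested in the control samples. RNA-Seq of polyA+ RNA was performed on 4 tissues (tongue, muscle, stomach and heart) of Trex1-KO mice (Trex1-/-), with 3 control samples and 3 samples from mice given SN-011, an antagonist of STING, for each tissue. Trex1 encodes a DNA exonuclease whose loss leaves cytosolic DNA to activate the cGAS-STING pathway, and control and SN-011 mice alike carried the knockout, so no group shows the genes in wild-type tissue. The labels give SN-011 at 5 mg/kg, 3 times per week for 4 weeks, and call the controls untreated. The study's methods describe another schedule, daily intraperitoneal injection over a shorter period in young mice on a C57BL/6J background, with Tween 80 in PBS as the vehicle. Neither source says which samples came from the same mouse, so the p-values measure only the spread between these samples.

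Each sample held 14253416 to 18443329 counts, so that a floor of 3 counts corresponded to 0.163 to 0.210 CPM (counts scaled to a common library size), which covers counting error only. Control replicate 1 of each tissue expressed Xist (3060 to 13811 counts) and almost no Ddx3y (at most 3), the reverse of all other samples (at most 20 and at least 825). Only 11546 genes were detected in muscle SN-011 replicate 2, where every other library had 19798 or more. Some values are also given without these libraries, and all others include them. For Trex1, 0 counts were listed in every one of the 24 samples, and since the gene overlaps Atrip this is no check of the genotype. Markers of heart, skeletal muscle, stomach and tongue epithelium each had their highest sums in the tissue they name. Summed markers of stomach glands and surface cells (Atp4a, Atp4b, Gkn1, Gkn2, Muc5ac, Tff1, Pgc) reached 2615 CPM in tongue control replicate 2 and 2567 CPM in heart control replicate 2, and were at most 61.9 CPM in any SN-011 sample outside the stomach.

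p53 is a transcription factor that is kept low by the ubiquitin ligase Mdm2 and accumulates after DNA damage and other stress. Its targets stop the cell cycle, repair DNA or promote cell death, and Mdm2 is itself a target, which closes a feedback loop. Oxidative stress genes of the kind followed here are switched on by NRF2 (Nfe2l2), which Keap1 holds in the cytoplasm until oxidants or electrophiles release it, and Bach1 represses Hmox1 until heme displaces it. In bulk tissue, fewer cells of a type and less RNA per cell cannot be told apart.

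Of the 10 genes, 8 had 10 promoters between them in the RefSeq table of GRCm38.p6, each taken as 250 bases before and 50 after a start. Hmox1 and Gclc were not in that table. A gene was counted as matched if any of its promoters matched, whereas the shares are over promoters. A full p53 site, read as a pair of adjacent half-sites with at most 2 bases off the consensus, was found for Cdkn1a and Ccng1 and in 0.798% of the 32851 promoters. The p53 half-site, which is also counted within a full site, was matched without mismatch for Gadd45a, Mdm2, Ccng1 and Cdkn1a and in 8.36% of promoters. The core of the antioxidant response element, TGACNNNGC on either strand, was matched for Cdkn1a and Eda2r and in 12.4% of promoters. The Cdkn1a core, within chr17:29093786-29093814, lay in the promoter of a different start from the full p53 site of that gene. Both full sites are shown, since Cdkn1a and Ccng1 share this element and had different values in the same tissues, with the half-site of Mdm2 and the element of Eda2r, and capitals mark the matched bases on the gene's strand.
Cdkn1a, chr17:29090923-29090952, plus strand, site 51 to 32 bases before the start: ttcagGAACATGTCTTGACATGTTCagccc
Ccng1, chr11:40755457-40755486, minus strand, site 195 to 176 bases before the start: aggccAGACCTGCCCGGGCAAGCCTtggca
Mdm2, chr10:117710925-117710954, minus strand, half-site 186 to 177 bases before the start: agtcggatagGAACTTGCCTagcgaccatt
Eda2r, chrX:97377328-97377356, minus strand, core 137 to 129 bases before the start: gccagacttgTGACTTGGCcggtgtttac
A match of letters is a description and does not show that a factor was bound there.

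SN-011 and control samples of the 10 genes were compared by whether any sample of one group lay within the range of the other. In the heart, every SN-011 sample was above every control for 1 gene and below for 1, where 13.8% and 13.4% of the 16151 genes tested were apart in these directions. In the stomach, 2 genes were apart and higher and 4 apart and lower, against 17% and 16.1% of 17031 genes. For the muscle, where Gdf15 did not pass the filter on low counts, 4 of 9 were higher and 3 lower, against 11.5% and 21.6% of 14198 genes. In the tongue, 0 were higher and 2 lower, against 9.8% and 7.92% of 16587 genes. Without control replicate 1 and, in the muscle, SN-011 replicate 2, the counts higher and lower were 1 and 2 (heart), 2 and 4 (stomach), 5 and 4 (muscle) and 1 and 3 (tongue). In this smaller set more of all genes were apart, namely 18.9% higher and 18.8% lower (heart), 24.4% and 24.5% (stomach), 33.3% and 37.2% (muscle) and 23.6% and 23.7% (tongue). When p-values of edgeR's quasi-likelihood test were adjusted by Benjamini-Hochberg over the genes of a tissue, 0 of the 10 passed 0.05 anywhere, where 0.848% (heart), 0% (stomach), 0.0141% (muscle) and 0% (tongue) of all genes did. At an unadjusted p under 0.05, and with the tissues in the same order, the numbers were 2, 4, 6 and 2, against 22.4%, 24.6%, 14.8% and 12.5% of all genes. DESeq2 called 1, 2, 3 and 1 of them, against 8.38%, 14%, 6.2% and 2.42% of all genes, and edgeR's exact test 0, 2, 2 and 1, against 5.68%, 10.8%, 3.37% and 1.53%. Because the genes were chosen by these contrasts, nothing is read from the counts.

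**Figure D1:**
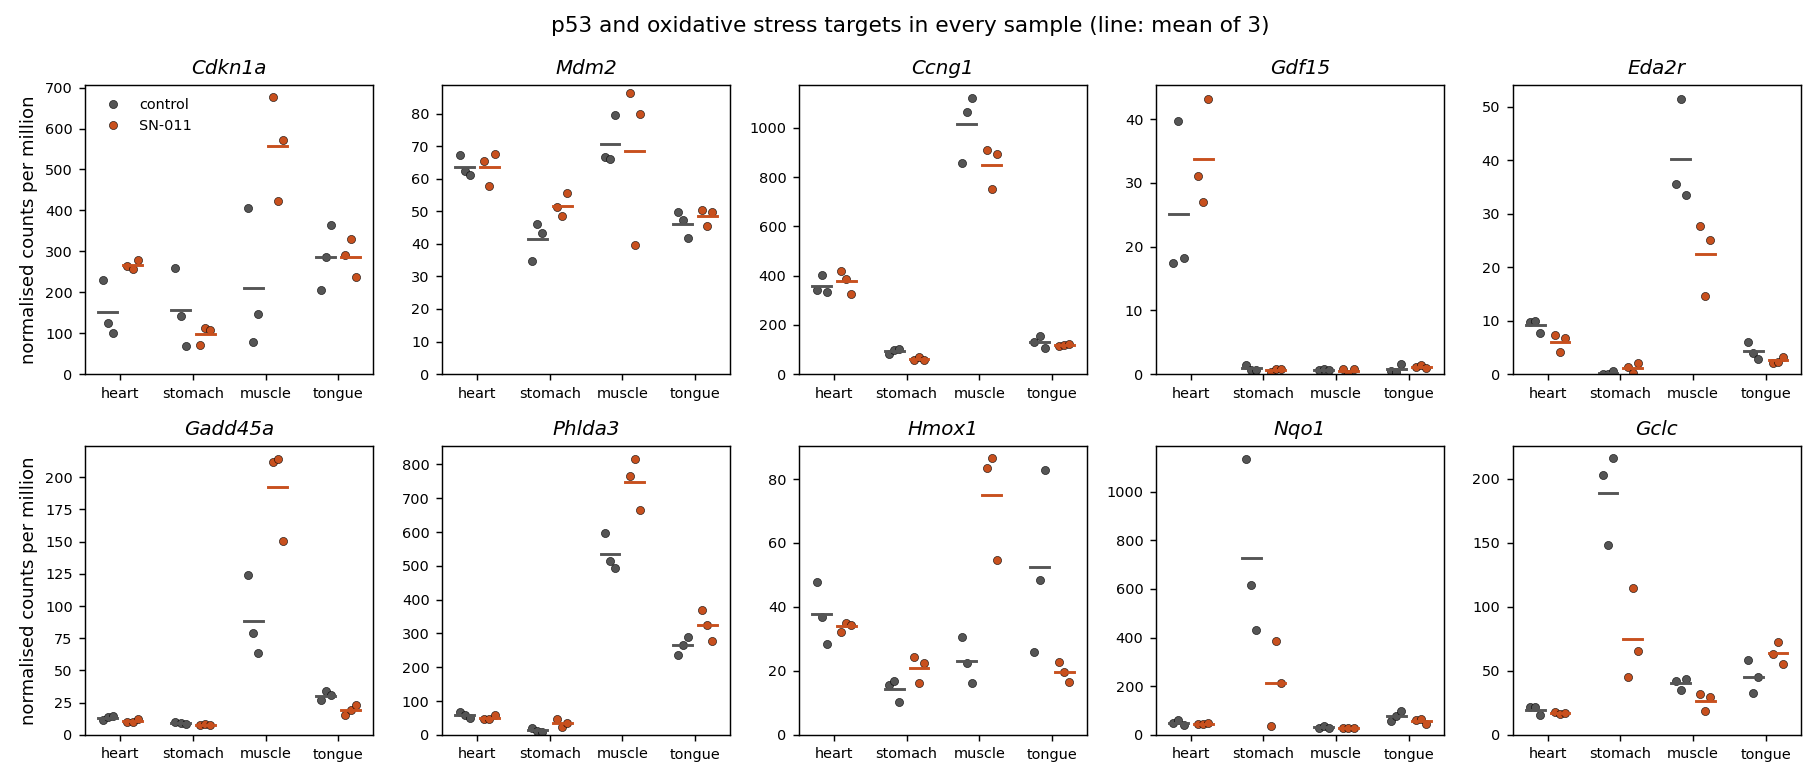
Normalised CPM of each gene (linear y axis from 0) in the 4 tissues (x axis), with one point per sample, grey for control and orange for SN-011, and a line at the mean of 3. Cdkn1a, Gadd45a and Hmox1 in the muscle had every SN-011 sample above every control, and Nqo1 and Gclc in the stomach had every SN-011 sample below.

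Cdkn1a (ENSMUSG00000023067, chromosome 17, 29090976 to 29100727, GRCm38, plus strand) encodes p21, the inhibitor of cyclin-dependent kinases that carries much of the p53 arrest. In the heart its levels were 229, 126 and 99.7 CPM in controls and 263, 258 and 278 CPM with SN-011. The SN-011 hearts were close to one another and all above the controls, of which replicate 1 was highest. The log2 fold change, SN-011 over control throughout, was 0.82 (SE 0.26), and 1.23 without control replicate 1. In the muscle, levels were 405, 79.4 and 147 CPM in controls and 676, 424 and 571 CPM with SN-011, so that the groups were again apart, with control replicate 1 just below the lowest SN-011 sample. The difference there was 1.47 (SE 0.58), and 2.39 without control replicate 1. In the stomach, 260.4, 142 and 69.7 CPM in controls overlapped with 72.1, 113 and 107 CPM with SN-011 (log2 fold change −0.65, SE 0.44). In the tongue, 206.5, 287 and 364 CPM overlapped with 292, 329.9 and 236 CPM. Exons of AC167363.2 overlap Cdkn1a on the other strand, and the strand setting of the counting was not given in the sources used here.

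Mdm2 (ENSMUSG00000020184, chromosome 10, 117688875 to 117710758, minus strand) lay between 34.9 and 86.2 CPM in all 24 samples. Stomach controls had 34.9, 46.0 and 43.3 CPM and SN-011 stomachs 51.3, 48.5 and 55.5 CPM, apart by a narrow margin (log2 fold change 0.35, SE 0.22). Heart values of 67.4, 62.5 and 61.3 CPM in controls and 65.5, 57.9 and 67.7 CPM with SN-011 overlapped, as did tongue values of 41.7 to 49.7 and 45.6 to 50.4 CPM. Muscle controls lay at 66.6, 65.9 and 79.6 CPM and SN-011 muscles at 86.2, 39.5 and 79.7 CPM, where the low value is that of replicate 2, the library with few genes. Without that library the muscle samples were apart and higher (log2 fold change 0.24). In the heart, the log2 fold change of Mdm2 was 0.01 (SE 0.11), beside 0.82 for Cdkn1a.

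Ccng1 (ENSMUSG00000020326, chromosome 11, 40748552 to 40755311, minus strand) encodes cyclin G1, a p53-induced protein that recruits a phosphatase to Mdm2. Its only separation was in the stomach, with 81.5, 97.6 and 104 CPM in controls and 58.4, 69.9 and 58.5 CPM with SN-011. All SN-011 stomachs were lower (log2 fold change −0.57, SE 0.23). Muscle levels were 859, 1066 and 1121 CPM in controls and 909, 750.3 and 893 CPM with SN-011, an overlap that disappeared without control replicate 1 (log2 fold change −0.27). Heart (333 to 402 and 326 to 419 CPM) and tongue (107 to 156 and 112 to 124 CPM) overlapped.

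Phlda3 (ENSMUSG00000041801, chromosome 1, 135766119 to 135769136, plus strand), a pleckstrin homology protein that competes with Akt for membrane lipids, had 598, 514 and 494.5 CPM in control muscle and 767, 815 and 666 CPM in SN-011 muscle. The muscle groups were apart (log2 fold change 0.59, SE 0.18), and 0.42 without SN-011 replicate 2. In the stomach it was at 19.8, 11.7 and 8.24 CPM in controls and 48.0, 22.5 and 34.0 CPM with SN-011, so that every SN-011 stomach was above every control (log2 fold change 1.45, SE 0.39). Markers of squamous epithelium (Krt5, Krt13, Krt4, Krt14, Krt36, Krtdap) were also apart and higher in SN-011 stomachs, with a sum of 261, 228 and 102 CPM in controls and 1325, 469 and 819 CPM with SN-011, and each of the 5 that could be tested, of 6, was apart and higher. Ordered by this sum, the 6 stomachs fell in the same order as by Phlda3, and the part of these cells in the Phlda3 values was not tested. Heart (48.4 to 67.5 and 45.8 to 59.9 CPM) and tongue (237 to 291 and 277 to 369.9 CPM) overlapped.

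Gadd45a (ENSMUSG00000036390, chromosome 6, 67035096 to 67037457, minus strand), a stress sensor that binds PCNA and p21 and is induced in wasting muscle, differed in direction between tissues. Muscle samples were at 124, 78.7 and 63.6 CPM in controls and 211, 214 and 151 CPM with SN-011, all higher (log2 fold change 1.21, SE 0.31). The value was 1.55 without control replicate 1 and 1.03 without SN-011 replicate 2. Tongue samples were at 27.0, 33.8 and 30.7 CPM in controls and 15.6, 19.7 and 22.8 CPM with SN-011, all lower (log2 fold change −0.65, SE 0.18). Stomach samples were also lower by a narrow margin, with 10.1, 9.19 and 8.16 CPM in controls and 7.45, 8.11 and 7.30 CPM with SN-011 (log2 fold change −0.22, SE 0.28). In the heart, 11.6, 13.9 and 14.6 CPM overlapped with 10.3, 10.2 and 12.01 CPM, and were apart and lower without control replicate 1 (log2 fold change −0.41). Exons of E230016M11Rik overlap the gene on the other strand. Beside the muscle values, markers of skeletal muscle summed to 196500, 223200 and 206900 CPM in controls and 244400, 251000 and 247800 CPM with SN-011, and stomach markers to 65.5, 1196 and 509 CPM in controls and 61.9, 16.1 and 58.1 CPM with SN-011, and their part in the results was not tested.

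Eda2r (ENSMUSG00000034457, chromosome X, 97333840 to 97377216, minus strand), a tumour necrosis factor family receptor for ectodysplasin A2, was lower with SN-011 in the muscle and heart. Muscle values were 35.6, 51.5 and 33.5 CPM in controls and 27.7, 14.7 and 25 CPM with SN-011, a log2 fold change of −0.77 (SE 0.26), and −0.60 without SN-011 replicate 2. Heart values were 9.67, 10 and 7.77 CPM in controls and 7.24, 4.11 and 6.68 CPM with SN-011 (log2 fold change −0.60, SE 0.25). Cdkn1a and Eda2r therefore lay on opposite sides in these tissues, although both are p53 targets. Tongue values overlapped, at 5.93, 3.93 and 2.85 CPM in controls and 2.14, 2.30 and 3.23 CPM with SN-011. In the stomach the gene was near the floor, with 0, 1 and 14 counts in controls and 27, 3 and 41 counts with SN-011.

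Gdf15 (ENSMUSG00000038508, chromosome 8, 70629393 to 70632456, minus strand) encodes a secreted stress cytokine of the TGF-beta family. In the heart it was at 17.4, 39.6 and 18.2 CPM in controls and 31.0, 26.9 and 43.2 CPM with SN-011, with overlap (log2 fold change 0.44, SE 0.32). In the other tissues no sample had more than 30 counts, and the groups overlapped. The log2 fold change was −0.40 (SE 0.69) in the stomach and 0.54 (SE 0.63) in the tongue, with −0.64 to 0.05 and 0.18 to 1.56 when samples were left out in turn.

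**Figure D2:**
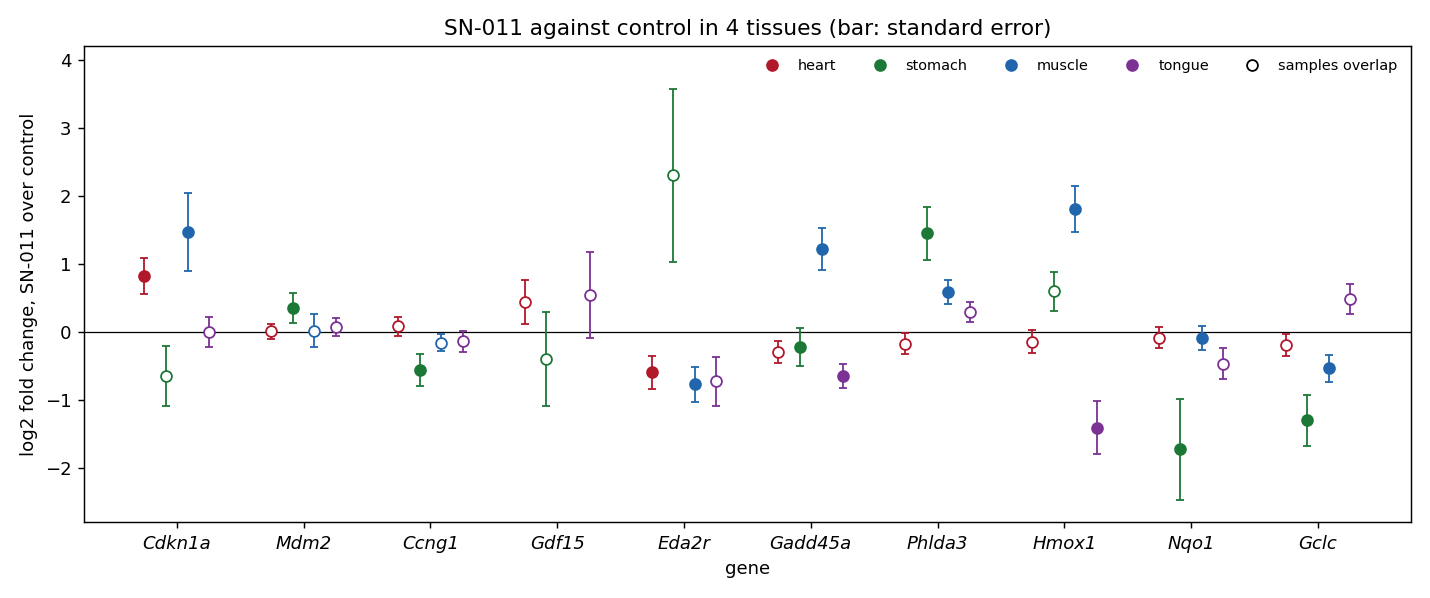
Log2 fold change of SN-011 over control (y axis) for each gene (x axis) in the heart, stomach, muscle and tongue (colours), with bars for the standard error of the edgeR fit; filled points mark genes whose SN-011 and control samples did not overlap, and Gdf15 in the muscle is not drawn. Hmox1 lay at 1.80 (muscle) and −1.41 (tongue), and Nqo1 at −1.73 in the stomach.

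Hmox1 (ENSMUSG00000005413, chromosome 8, 75093621 to 75100589, plus strand), the heme oxygenase that breaks heme down to biliverdin, iron and carbon monoxide, had 30.6, 22.6 and 16.1 CPM in control muscle and 83.6, 86.6 and 54.7 CPM in SN-011 muscle. The SN-011 muscles were all higher (log2 fold change 1.80, SE 0.33), and leaving out 1 sample at a time gave 1.58 to 2.07. Erythroid markers summed to 1264, 317 and 500 CPM in control muscle and to 1902, 1178 and 1901 CPM in SN-011 muscle, with the lowest SN-011 sum below the highest control. Macrophage markers summed to 1017, 964 and 1040 CPM in control muscle and 1322, 858 and 1331 CPM in SN-011 muscle. In the tongue, Hmox1 was at 26.0, 48.4 and 83.0 CPM in controls and 22.9, 19.6 and 16.6 CPM with SN-011. All SN-011 tongues were lower (log2 fold change −1.41, SE 0.39), although control replicate 1 lay close to them, and the value was −0.92 without control replicate 3. The controls with more Hmox1 also had more squamous epithelium markers, at 10800, 34090 and 48460 CPM, against 20490, 21150 and 13780 CPM with SN-011. Tongue controls 2 and 3 held stomach markers at 2615 and 2095 CPM, against 41.2 CPM in control 1 and 10.8 to 37.5 CPM with SN-011. The part of these cell types in the Hmox1 values was not tested. Heart (28.5 to 47.7 and 32.2 to 35.0 CPM) and stomach (10.3 to 16.9 and 16.1 to 24.4 CPM) overlapped.

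Nqo1 (ENSMUSG00000003849, chromosome 8, 107388225 to 107403206, minus strand), a quinone reductase and a standard reporter of NRF2 activity, was at 1134, 616 and 429.7 CPM in control stomachs and 37.8, 387 and 214 CPM in SN-011 stomachs. Every SN-011 stomach was lower (log2 fold change −1.73, SE 0.74), and the value was −1.23 to −2.50 when samples were left out in turn. Within each group, the order of the stomachs by Nqo1 was also their order by summed stomach markers, which were 131800, 64290 and 38360 CPM in controls and 16790, 95620 and 37290 CPM with SN-011. The markers overlapped between the groups, and at similar sums, 38360 CPM in control replicate 3 and 37290 CPM in SN-011 replicate 3, Nqo1 was at 429.7 and 214 CPM. The same stomachs were not alike in squamous epithelium markers, at 102 CPM in the control and 819 CPM with SN-011. Control replicate 1 and SN-011 replicate 1, at the ends of the Nqo1 range, were also at the ends of the marker range, and the part of these cells in the Nqo1 difference was not tested. Tongue values of 56.3, 77.7 and 97.4 CPM in controls and 59.2, 64.3 and 43.9 CPM with SN-011 overlapped. Muscle values of 29.4, 34.6 and 27.9 CPM and 26.5, 27.3 and 26.3 CPM were apart with scaling over all 24 samples, but overlapped when the muscle was scaled alone (log2 fold change −0.10, SE 0.18). Heart values overlapped at 38.6 to 60.1 and 45.1 to 47.1 CPM.

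Gclc (ENSMUSG00000032350, chromosome 9, 77754535 to 77794485, plus strand) encodes the catalytic subunit of the enzyme that limits glutathione synthesis. Stomach samples were at 203, 148 and 216 CPM in controls and 45.4, 114 and 65.3 CPM with SN-011, all lower (log2 fold change −1.30, SE 0.38). Unlike Nqo1, its control stomachs did not fall in the order of the stomach markers, though the SN-011 stomachs did. Muscle samples were at 42.0, 34.7 and 44.0 CPM in controls and 31.7, 18.4 and 29.3 CPM with SN-011, also all lower (log2 fold change −0.53, SE 0.20, and −0.40 without SN-011 replicate 2), so that Gclc and Hmox1 lay on opposite sides in the muscle. In the tongue, 58.2, 32.97 and 44.9 CPM in controls overlapped with 63.1, 72.2 and 55.6 CPM with SN-011 (log2 fold change 0.48, SE 0.22), and were apart and higher without control replicate 1 (0.71). Heart samples overlapped at 15.7 to 22.1 and 16.4 to 18.2 CPM.

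**Figure D3:**
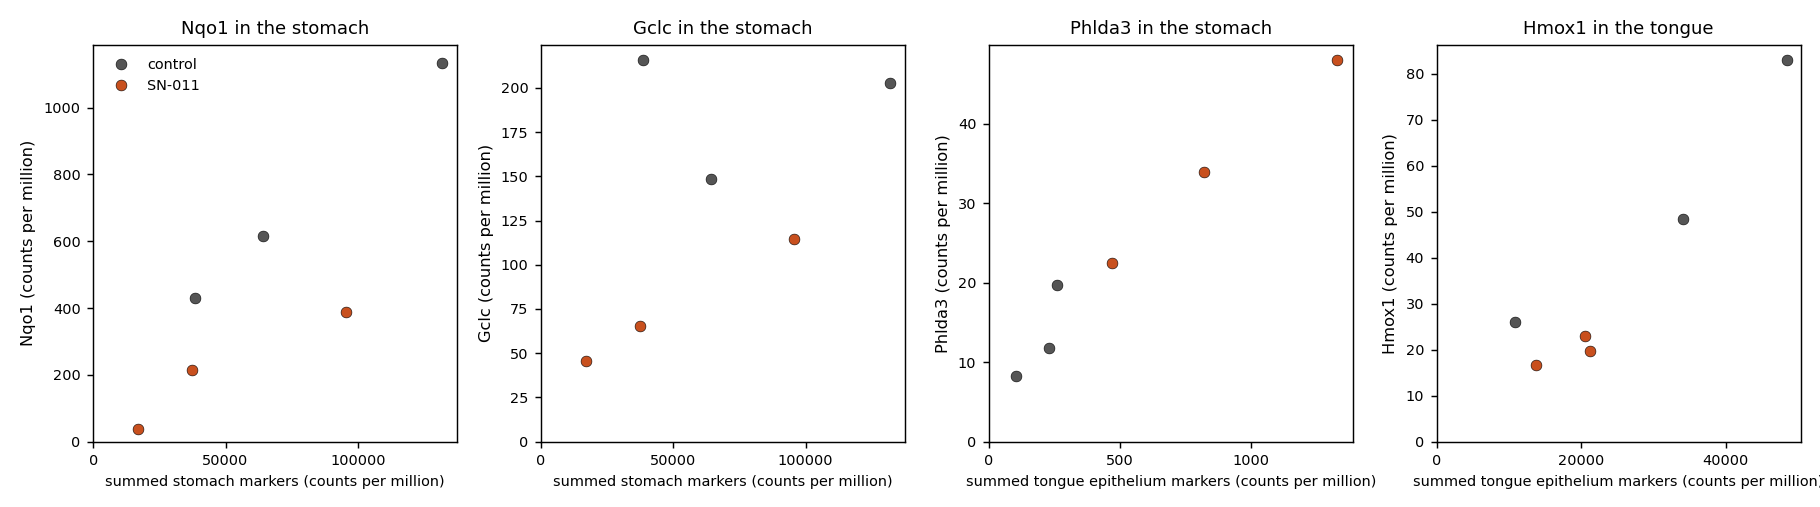
Level of one gene (y axis, CPM) against the summed markers of a cell type (x axis, CPM) in each of 6 samples, grey for control and orange for SN-011, for Nqo1 and Gclc in the stomach against stomach markers and for Phlda3 in the stomach and Hmox1 in the tongue against squamous epithelium markers. The Phlda3 values of 8.24 to 48.0 CPM rank as the marker sums do, while at marker sums of 38360 and 37290 CPM the control stomach was above the SN-011 stomach for both Nqo1 and Gclc. The same stomachs had squamous epithelium markers at 102 CPM (control) and 819 CPM (SN-011), and the part of these cell types was not tested.

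The resting levels of the genes differed widely between tissues. Comparing the 12 control samples in one edgeR fit, 8 of the 10 genes differed between heart and stomach (46.7% of all genes), and 6 for heart against muscle (38.9%), 6 for heart against tongue (32.3%), 7 for stomach against muscle (56.7%), 6 for stomach against tongue (40.6%) and, leaving out Gadd45a and Hmox1, 5 of 8 for muscle against tongue (43.3%). In all, 38 of 58 differences passed. The control values also entered the SN-011 contrasts behind the choice of genes, so that these tests are not fully separate from it. The SN-011 values carry that choice directly, and their numbers, 8, 7, 6, 8, 5 and 5 where 39.8%, 37.7%, 32%, 55.1%, 32.4% and 43.1% of all genes passed, are a description. Adjusted p-values in the next paragraphs are from the quasi-likelihood test in control samples.

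Among the p53 targets, the muscle had the highest control level of Ccng1, at 1015 ± 138 CPM (SD, n = 3), then the heart at 359.5 CPM, the tongue at 131 CPM and the stomach at 94.3 CPM. Ccng1 differed between muscle and heart (log2 difference, heart minus muscle, −1.53, adjusted p = 0.000275 by edgeR) and between heart and tongue (heart minus tongue 1.47, adjusted p = 0.000485 by edgeR), but not beyond the spread between tongue and stomach (adjusted p = 0.0895 by edgeR). Phlda3 had a full order, muscle 535.6 CPM, tongue 265 CPM, heart 58.1 CPM and stomach 13.3 CPM, in which each neighbour differed, with edgeR adjusted p-values of 0.00956, 0.000215 and 0.000121. Per kilobase of exon, the mean level in control muscle was 344 CPM for Phlda3, 289 CPM for Ccng1, 59.3 CPM for Cdkn1a and 13.9 CPM for Mdm2. Eda2r was at 40.2 CPM in the muscle, above the heart at 9.15 CPM (edgeR adjusted p = 0.00683), and heart and tongue at 4.24 CPM did not differ beyond their spread (adjusted p = 0.126 by edgeR), while the stomach was lower again at 0.219 CPM (edgeR adjusted p = 0.000626 against the tongue). Gadd45a was at 88.7 CPM in the muscle and 30.5 CPM in the tongue, a pair used in the choice of genes. The tongue was above the heart at 13.3 CPM (edgeR adjusted p = 0.00281), and heart and stomach, at 9.15 CPM, did not pass (adjusted p = 0.0611 by edgeR).

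Gdf15 was highest in the heart, at 25.1 CPM against 0.906 CPM in the stomach (log2 difference 4.84, SE 0.62, edgeR adjusted p = 8.28e-05) and 0.781 and 0.674 CPM in the tongue and muscle, which did not differ from the stomach beyond their spread. Cdkn1a showed the opposite case, since none of its 6 pairs of tissues passed in controls, where replicate 1 was highest in heart, stomach and muscle. Its mean levels in SN-011 samples, given with no test since they were used in the choice, were 557 CPM (muscle), 286 CPM (tongue), 266 CPM (heart) and 97.1 CPM (stomach). Mdm2 spanned the narrowest range, from 70.7 CPM (muscle) and 63.7 CPM (heart) to 46.2 CPM (tongue) and 41.4 CPM (stomach). Its step from heart to tongue (edgeR adjusted p = 0.0389) did not pass under 7 of 11 alternatives, the replicate block among them.

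The oxidative stress genes had another order. Nqo1 and Gclc were highest in the stomach, at 727 and 189 CPM, and above the tongue at 77.1 and 45.4 CPM (log2 differences 3.21, SE 0.36, and 2.03, SE 0.25, edgeR adjusted p = 4.39e-05 and 7.45e-05). Below the stomach, Nqo1 did not differ between tongue and heart (49.3 CPM) or heart and muscle (30.6 CPM), but did between tongue and muscle (edgeR adjusted p = 0.00919). Stomach markers were at 2615 and 2095 CPM in tongue controls 2 and 3, and at 2567 and 1196 CPM in heart and muscle control 2. Among controls of each tissue, Nqo1 was highest in these samples. Heart and muscle control 3, with markers at 259 and 509 CPM, had the lowest Nqo1. The part of these cells was not tested. Gclc did not differ beyond its spread between tongue and muscle, at 45.4 and 40.2 CPM (muscle minus tongue −0.14, SE 0.24), and was lower in the heart at 19.7 CPM (edgeR adjusted p = 0.00478 against the muscle). Hmox1 ran from 52.4 CPM (tongue) and 37.7 CPM (heart) to 23.1 CPM (muscle) and 14.3 CPM (stomach), with no step between neighbours past the threshold, although heart and tongue each differed from the stomach (edgeR adjusted p = 0.0101 and 0.0026). Mean Hmox1 levels in SN-011 samples, again with no test, were 75.0 CPM (muscle), 33.9 CPM (heart), 20.9 CPM (stomach) and 19.7 CPM (tongue).

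Other targets of p53 were higher in some cases and lower in others. Of 34 further targets, all of them tested, 1 passed in the heart (edgeR adjusted p under 0.05) and 0 in the stomach, muscle and tongue, where 0.848%, 0%, 0.0141% and 0% of all genes did. At an unadjusted p under 0.05 the numbers were 10, 11, 8 and 4, against 22.4%, 24.6%, 14.8% and 12.5% of all genes. DESeq2 called 3, 8, 5 and 1, against 8.38%, 14%, 6.2% and 2.42%. The exact test of edgeR called 3, 5, 4 and 0, against 5.68%, 10.8%, 3.37% and 1.53%. Higher and lower without overlap were 6 and 4 genes (heart, 13.8% and 13.4% of all genes), 8 and 6 (stomach, 17% and 16.1%), 7 and 11 (muscle, 11.5% and 21.6%) and 4 and 0 (tongue, 9.8% and 7.92%). Without control replicate 1 and muscle SN-011 replicate 2, these were 8 and 4, 12 and 8, 14 and 17 and 14 and 7, beside shares over all genes in that set of 18.9% and 18.8%, 24.4% and 24.5%, 33.3% and 37.2% and 23.6% and 23.7%. The median log2 fold change of the list was between 0.02 and 0.04 in each tissue, beside −0.01 (heart), 0.00 (stomach), −0.08 (muscle) and −0.01 (tongue) over all genes.

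The target that passed was Sesn1, encoding sestrin 1, an inhibitor of mTORC1 that FoxO factors also induce. In the heart it rose from 92.7, 92.4 and 80.8 CPM to 178, 217 and 195 CPM (log2 fold change 1.16, SE 0.12, edgeR adjusted p = 0.0111). The call was lost when any 1 of the SN-011 hearts was left out (edgeR adjusted p of 0.0619, 0.105 and 0.0651) and in the joint fit of all tissues (0.427). SN-011 samples were also apart and higher for Sesn1 in the stomach (log2 fold change 1.29) and muscle (2.09), at 58.3, 41.5 and 46.0 CPM against 26.1, 14.5 and 20.7 CPM and at 548, 420.2 and 490.0 CPM against 199.5, 94.0 and 67.0 CPM. The death receptor gene Fas was apart and higher in the heart, stomach and muscle (log2 fold changes 0.62, 0.91 and 0.83), and Ckap2, a spindle protein gene, apart and lower in the same 3 tissues (−0.76, −1.26 and −2.22). In the muscle Ckap2 was low, at 2.55, 1.87 and 3.30 CPM in controls and 0.746, 0 and 0.836 CPM with SN-011 (SE 1.13). The 0 is that of SN-011 replicate 2, the library with few genes. Without that library and control replicate 1, Ckap2 was still apart and lower there. The apoptosis gene Bax overlapped in all 4 tissues, with log2 fold changes of 0.18, 0.32, 0.74 and 0.08, and Zmat3, an RNA-binding p53 target, was apart in the heart alone (−0.34). In the muscle, Bax was at 75.75 CPM in SN-011 replicate 2, the library with few genes. The other SN-011 muscles had 35.71 and 37.27 CPM and the controls 38.65, 30.05 and 29.57 CPM. Without control replicate 1 and that library, Bax was apart and higher in the stomach, muscle and tongue. Sesn2 was apart and higher in the stomach (1.09).

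Trp53 itself was at 25.6, 33.1 and 33.3 CPM in control muscle and 24.3, 12.5 and 23.1 CPM in SN-011 muscle, lower without overlap (log2 fold change −0.55, SE 0.24), and overlapped in the other tissues. Without control replicate 1 and muscle SN-011 replicate 2, Trp53 was apart and lower in the muscle and heart. Mdm4, the partner of Mdm2, overlapped in all 4. Of 10 regulators of p53, 9, 9, 7 and 10 were tested in the heart, stomach, muscle and tongue. Among these, 0 passed in edgeR in any tissue, 2, 3, 1 and 2 had an unadjusted p under 0.05, DESeq2 called 0, 2, 0 and 1, and the exact test 0, 2, 0 and 1. Of 11 relatives of p21, Gadd45a, Phlda3 and Ccng1 (among them Cdkn1b, Cdkn1c and Gadd45b), 10, 11, 10 and 11 were tested. They had 0 calls in edgeR, 4, 4, 3 and 1 at an unadjusted p under 0.05, 1, 3, 1 and 0 in DESeq2 and 0, 2, 1 and 0 in the exact test. Over all genes, 22.4%, 24.6%, 14.8% and 12.5% had an unadjusted p under 0.05. DESeq2 called 8.38%, 14%, 6.2% and 2.42% of all genes, and the exact test 5.68%, 10.8%, 3.37% and 1.53%.

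Genes of cell division that p21 represses through the DREAM complex were mostly lower in the SN-011 samples of the heart, stomach and muscle. In the heart 2 of 14 passed, both lower, against 0.848% of all genes. Every SN-011 heart was below every control for 13 of 14, against 13.4% of all genes. That count was also 13 without control replicate 1, where 18.8% of all genes were apart and lower. In the stomach 9 of 14 were apart and lower (16.1% of all genes), among muscle samples 7 of 12 tested (21.6%), and for the tongue 1 of 14 (7.92%), with 2 higher (9.8%). Medians were −0.80, −0.96, −1.25 and −0.11. Without control replicate 1 and muscle SN-011 replicate 2, 12, 8 and 2 genes were apart and lower in stomach, muscle and tongue (24.5%, 37.2% and 23.7% of all genes). There, 0, 1 and 2 were apart and higher (24.4%, 33.3% and 23.6%). Muscle sums of the list were 76.6, 62.5 and 73.0 CPM in controls and 41.9, 14.2 and 49.8 CPM with SN-011. The lowest is that of replicate 2, the library with few genes. In the heart, 13 of 14 had an unadjusted p under 0.05 (22.4% of all genes), DESeq2 called 10 (8.38%) and the exact test 7 (5.68%). Calls in stomach, muscle and tongue were 0 in edgeR, with 10, 0 and 4 at an unadjusted p under 0.05, 5, 0 and 0 in DESeq2 and 5, 0 and 0 in the exact test. Of all genes in these tissues, 24.6%, 14.8% and 12.5% had an unadjusted p under 0.05. DESeq2 called 14%, 6.2% and 2.42% of them, and the exact test 10.8%, 3.37% and 1.53%. In the heart, Top2a, the topoisomerase of dividing cells, fell from 41.1, 30.9 and 40.1 CPM to 19.5, 18.4 and 17.1 CPM (log2 fold change −1.02, SE 0.14, edgeR adjusted p = 0.0275), and Mcm2, a subunit of the replicative helicase, from 18.5, 24 and 24.8 CPM to 11.96, 12.05 and 12.01 CPM (−0.89, SE 0.15, edgeR adjusted p = 0.0402). Both calls were lost without control replicate 3 and without any 1 of the SN-011 hearts, with adjusted p-values of 0.0656 to 0.157 for Top2a and 0.0995 to 0.200 for Mcm2, and in the joint fit (0.797 and 0.342). Mki67, Ccna2, Cdk1 and Birc5 were apart and lower in the heart, stomach and muscle. Muscle SN-011 replicate 2 had no counts of Mki67, Top2a, Ccna2 or Cdk1. T cell markers had medians of −0.48, −0.43, −0.35 and −0.36 in the 4 tissues, their sums overlapped in the heart (124 to 241 CPM in controls and 106 to 162 CPM with SN-011), and their part in these genes was not tested.

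**Figure D4:**
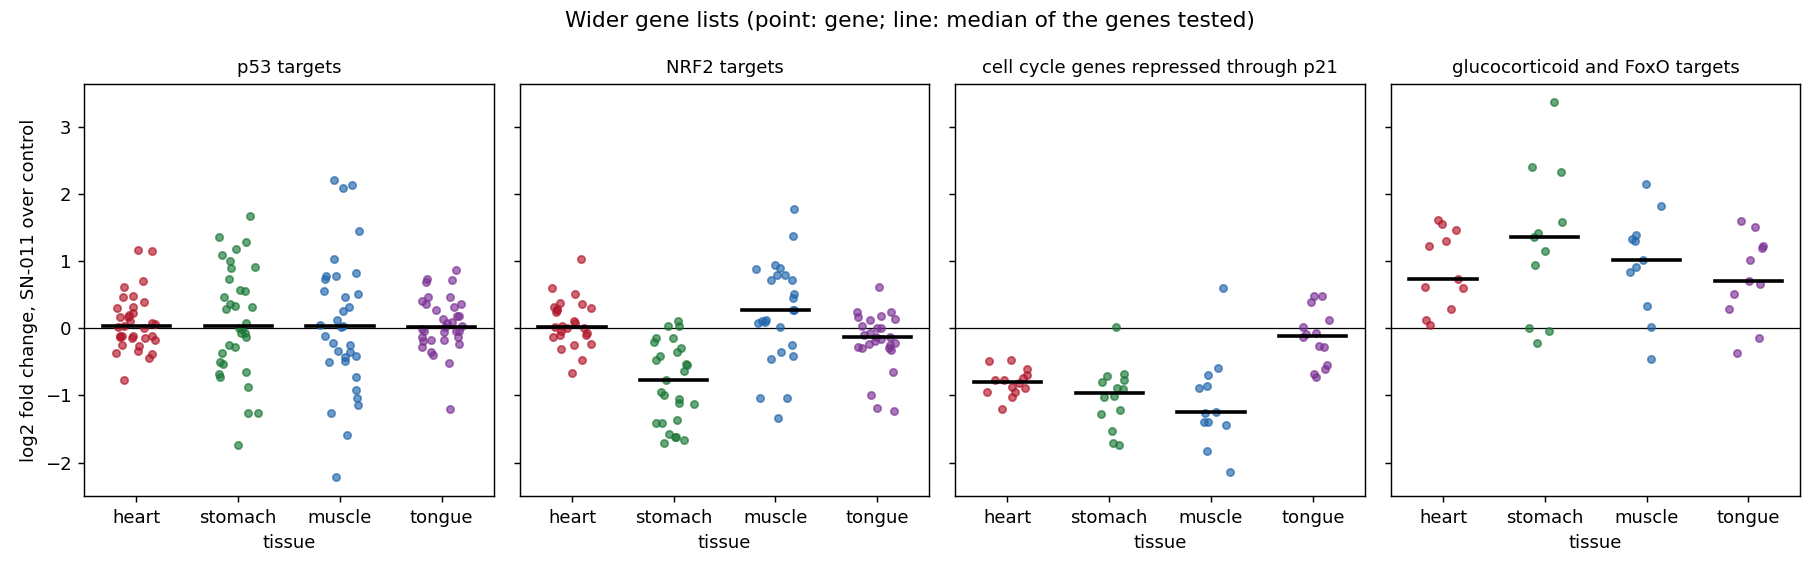
Log2 fold change of SN-011 over control (y axis) for each tested gene of 4 lists (panels) in the heart, stomach, muscle and tongue (x axis), with a black line at the median. The medians for p53 targets lie near 0 in every tissue, those for NRF2 targets at −0.77 in the stomach and 0.27 in the muscle, those for cell cycle genes below 0, and those for glucocorticoid and FoxO targets between 0.70 and 1.37.

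The median log2 fold change of NRF2 targets was below 0 in the stomach and above 0 in the muscle. In the stomach Nqo1 and Gclc were below 0 and Hmox1 above (0.59), and in the muscle Hmox1 was above 0 and Nqo1 and Gclc below (−0.10 and −0.53). Of 27 further targets, 26, 27, 25 and 27 were tested in the heart, stomach, muscle and tongue. Among these, 0 passed in any tissue by edgeR, with 5, 13, 11 and 2 at an unadjusted p under 0.05, 4, 10, 6 and 0 called by DESeq2 and 2, 7, 4 and 0 by the exact test. The unadjusted shares over all genes were 22.4%, 24.6%, 14.8% and 12.5%. DESeq2 called 8.38%, 14%, 6.2% and 2.42% of all genes, and the exact test 5.68%, 10.8%, 3.37% and 1.53%. Genes apart and higher or lower numbered 5 and 2 (heart, 13.8% and 13.4% of all genes), 0 and 10 (stomach, 17% and 16.1%), 8 and 4 (muscle, 11.5% and 21.6%) and 2 and 0 (tongue, 9.8% and 7.92%). Without control replicate 1 and muscle SN-011 replicate 2, these were 6 and 3, 1 and 11, 20 and 4 and 4 and 12, where the shares over all genes were 18.9% and 18.8% (heart), 24.4% and 24.5% (stomach), 33.3% and 37.2% (muscle) and 23.6% and 23.7% (tongue). The medians were 0.03, −0.77, 0.27 and −0.13. Summed over the list, the stomachs were at 13940, 8908 and 6145 CPM in controls and 4027, 6877 and 5134 CPM with SN-011, with overlap. Within each group, the stomachs fell in the same order by this sum, by Gclm and by summed stomach markers. The part of these cells in the list was not tested. Gclm, the modifier subunit that pairs with Gclc, was at 132, 107 and 98.8 CPM in control stomachs and 34.1, 71.1 and 45.7 CPM with SN-011 (log2 fold change −1.13, SE 0.31), and at 46.6, 50.8 and 43.7 CPM in control muscle and 103, 69.6 and 76.6 CPM with SN-011 (0.90, SE 0.16). In the muscle, Gclm and Gclc thus lay on opposite sides of their controls. Srxn1, which repairs peroxiredoxins, was apart and higher in the muscle (1.37, SE 0.21) and heart (0.38) and overlapped in the stomach and tongue. Txnrd1, thioredoxin reductase, was apart and lower in the stomach (−1.05, SE 0.32), and Ugdh, which makes UDP-glucuronate, in the heart (−0.66), stomach (−1.61) and muscle (−1.03).

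Nfe2l2, which encodes NRF2, was at 261, 588 and 427 CPM in control stomachs and 117, 244 and 213 CPM with SN-011, all lower (log2 fold change −1.13, SE 0.42), and at 80.5, 72.9 and 60.4 CPM in control muscle and 131, 84.7 and 116 CPM with SN-011, all higher (0.71, SE 0.17). Keap1 was apart and higher in the tongue alone (0.22) and Bach1 in the heart alone (0.35). The 10 NRF2 regulators had 0 calls in edgeR, 5, 3, 4 and 2 at an unadjusted p under 0.05, 4, 3, 3 and 0 in DESeq2 and 2, 0, 3 and 0 in the exact test. Among 11 genes of heme and iron handling, 0 passed in edgeR, 1, 5, 4 and 0 had an unadjusted p under 0.05, DESeq2 called 0, 3, 0 and 0 and the exact test 0, 2, 0 and 0, with medians between −0.16 and −0.02. Beside these, 22.4%, 24.6%, 14.8% and 12.5% of all genes had an unadjusted p under 0.05. DESeq2 called 8.38%, 14%, 6.2% and 2.42% of all genes, and the exact test 5.68%, 10.8%, 3.37% and 1.53%.

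The integrated stress response acts through Atf4 and also raises Gdf15 and Sesn2. Atf4 was at 347, 309 and 325 CPM in control muscle and 663, 401 and 581 CPM in SN-011 muscle (log2 fold change 0.82, SE 0.15), and apart and higher in the heart as well (0.26). Atf3 was apart and higher in the muscle (1.37, SE 0.35) and apart and lower in the stomach (−0.88, SE 0.26). Of 11 genes of this response, 11, 10, 10 and 10 were tested in the heart, stomach, muscle and tongue. Among these, 0 passed in edgeR, with 3, 4, 3 and 1 at an unadjusted p under 0.05, 1, 3, 3 and 0 in DESeq2 and 1, 3, 3 and 0 in the exact test. Of 6 ligands and receptors of Eda2r and Gdf15 (Eda, Edar, Edaradd, Traf6, Gfral, Ret), 5, 5, 4 and 5 were tested. They had 0 calls in edgeR, 2, 4, 0 and 0 at an unadjusted p under 0.05, 0, 1, 0 and 0 in DESeq2 and the same numbers in the exact test. For both lists, the unadjusted shares over all genes were 22.4%, 24.6%, 14.8% and 12.5%. DESeq2 called 8.38%, 14%, 6.2% and 2.42% of all genes, and the exact test 5.68%, 10.8%, 3.37% and 1.53%.

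Targets of the glucocorticoid receptor and FoxO factors, which also act on Cdkn1a, Gadd45a and Sesn1, had no member that was apart and lower. Every SN-011 sample was above every control for 7 of 11 genes (heart), 5 (stomach), 6 (muscle) and 6 (tongue), against 13.8%, 17%, 11.5% and 9.8% of all genes. Without control replicate 1 and muscle SN-011 replicate 2, the numbers were 9, 9, 10 and 9, where 18.9%, 24.4%, 33.3% and 23.6% of all genes were apart and higher. Medians were 0.73, 1.37, 1.02 and 0.70. In edgeR, 1 passed in the heart (0.848% of all genes) and 0 elsewhere, with 7, 6, 6 and 5 at an unadjusted p under 0.05, 4, 5, 4 and 4 in DESeq2 and 4, 5, 3 and 2 in the exact test. Of all genes, 22.4%, 24.6%, 14.8% and 12.5% had an unadjusted p under 0.05. DESeq2 called 8.38%, 14%, 6.2% and 2.42% of all genes, and the exact test 5.68%, 10.8%, 3.37% and 1.53%. The muscle ubiquitin ligase gene Trim63 rose in the heart from 100.1, 141 and 88.2 CPM to 259.6, 317 and 235 CPM (log2 fold change 1.31, SE 0.20, edgeR adjusted p = 0.0281), a call lost in 6 of 13 alternatives, among them the joint fit (edgeR adjusted p = 0.803), any SN-011 heart left out, and control replicates 1 or 3 left out (0.0524 and 0.0699). Tsc22d3, the glucocorticoid-induced leucine zipper gene, was apart and higher in all 4 tissues (log2 fold changes 1.23, 1.16, 1.34 and 1.22), as was Fbxo32, another muscle ubiquitin ligase gene (0.62, 1.42, 1.30 and 1.02). Fkbp5, which binds the glucocorticoid receptor, was apart and higher in the heart, muscle and tongue (1.61, 1.40 and 1.51), and Zbtb16 in the heart, stomach and tongue (1.55, 3.37 and 1.20). In the muscle, Tsc22d3 stood at 680, 433 and 348 CPM in controls and 1122, 1135 and 1213 CPM with SN-011, so that control replicate 1 was the highest control. For Cdkn1a, control replicate 1 was the highest control in the heart, stomach and muscle but the lowest in the tongue. A link between the genes was not tested. Among the heart markers, Tnnt2, cardiac troponin T, was apart and higher in the heart, muscle and tongue (0.54, 1.02 and 0.73). The list as a whole was mixed. Of its tested genes, 3 of 6 (heart, 13.8% of all genes), 1 of 4 (muscle, 11.5%) and 1 of 3 (tongue, 9.8%) were apart and higher. In the tongue 1 of 3 was apart and lower (7.92%), with a list median of −0.22. The summed heart markers overlapped between SN-011 and control in each of these tissues.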

How the data were processed

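The authors deposited raw counts of read pairs per gene, 1 file for each of 24 samples, with no normalization and 54532 gene rows in the same order. Per the labels, reads were mapped to mm10 with HISAT2 and counted with HTSeq, whereas the study's methods name featureCounts on uniquely mapped pairs. Versions, annotation and strand setting are not given in the sources used here. Of the gene identifiers, 54495 were found in GENCODE M21 of GRCm38, which gave symbols and positions. Reads from overlapping genes could not be assigned again.

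The depth was 14253416 to 18443329 counts per sample. Each tissue was fitted alone with edgeR 4.0.16 in R 4.3.3 (filterByExpr with minimum count 10 and minimum total count 15, TMM, glmQLFit and glmQLFTest, prior count 0.125), with Benjamini-Hochberg adjustment over all genes and a threshold of 0.05. The 12 control and the 12 SN-011 samples were each fitted for pairs of tissues. The standard error (SE) is the log2 fold change over the square root of the F statistic. Levels are CPM scaled by TMM over all 24 samples. Alternatives were DESeq2 1.42.0, its size factors in edgeR, edgeR's exact test, no filter, a stricter filter of 10 counts in all samples, a joint fit, a replicate block and the removal of single samples. These fits were checked on simulated data. Tables and figures used Python 3.11.15, pandas 2.3.3 and matplotlib 3.10.9.

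The genes and the gene lists were chosen with earlier results of these data known. The lists were written from general knowledge. Named from them were genes past the threshold (up to 3 per list and tissue), genes apart in one direction in at least 3 tissues (up to 4 per list, Tnnt2 among the heart markers included), and Trp53, Mdm4, Bax, Zmat3, Sesn2, Nfe2l2, Keap1, Bach1, Gclm, Txnrd1, Srxn1, Atf3, Atf4 and Mki67. Counts of genes without overlap, repeated without control replicate 1 and muscle SN-011 replicate 2 or scaled within the tissue, were chosen after seeing the data. Same-numbered samples of control and SN-011 had correlations of −0.371 to 0.273 and were not treated as pairs. Between tissues, same-numbered controls had a mean correlation of 0.245 (−0.139 to 0.547), against −0.119 for different numbers, and same-numbered SN-011 samples 0.0616 (−0.0405 to 0.193), against −0.0297. Control replicate 1 expressed Xist in every tissue. No label ties a number to a mouse and not every pair was above 0.1, so tissues were compared without a block, and samples of a mouse, if shared, were treated as independent.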

Additional observations from a re-analysis of the deposited data

Results flagged for a closer look

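Gadd45a and Hmox1 were singled out because every SN-011 sample lay on one side of the controls in one tissue and on the other side in another. For Gadd45a the log2 fold change was 1.21 in the muscle, −0.65 in the tongue and −0.22 in the stomach, with all SN-011 muscles above and all SN-011 tongues and stomachs below their controls. For Hmox1 it was 1.80 (muscle) and −1.41 (tongue). The difference between tissues was not tested, since both genes were chosen by it.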

How the results depend on the processing

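The number of genes called between SN-011 and control depended on the setting in every tissue, and the cause was not tested. In the heart, 137 genes were called, against 1888 with no filter on low counts, 265 with at least 10 counts in every sample, 918 by edgeR's exact test, 1354 by DESeq2 and 1 when all 24 samples were fitted jointly. For the stomach 0 became 1368, 126, 1835, 2389 and 2738, for the muscle 2 became 110, 75, 479, 880 and 474 and, with DESeq2 size factors, 1, and for the tongue 0 became 18, 0, 253, 401 and 4. Leaving out 1 sample gave 1 (without SN-011 replicate 2) to 787 (without control replicate 2) heart genes, 0 to 64 (without control replicate 1) for the stomach, 0 to 1103 (without SN-011 replicate 2) for the muscle and 0 to 2135 (without control replicate 1) for the tongue. Under the replicate block, 242 (heart), 181 (stomach), 0 (muscle) and 0 (tongue) genes were called, and the Cdkn1a difference of heart minus stomach in controls changed sign to 0.0297. The block also ended the call of Mdm2 for heart minus tongue in controls (0.47), and no other call of the 10 genes between control tissues. The numbers do not pair the samples by any label. Counts between tissues stayed within 1.5 times, other than 6541 against 10174 for stomach against muscle in SN-011 samples with at least 10 counts in every sample. Without control replicate 1 of each tissue and muscle SN-011 replicate 2, 2 in place of 1 of the 10 genes were apart and lower in the heart, and 1 in place of 0 apart and higher in the tongue. Of 504 log2 fold changes of the 10 genes between SN-011 and control under the alternatives, 5 moved by more than the spread between replicates, each when 1 sample was left out. Between tissues in controls, 605 of 626 values kept direction and call, 7 lost the call and 1 gained it, and 13, none of them called, changed sign. Among the latter, leaving out 1 sample gave −0.43 to 0.56 for Cdkn1a in heart minus stomach (0.04 and 0.21 without heart replicates 2 and 3), −0.92 to 0.39 in heart minus muscle and −1.07 to 0.40 in stomach minus muscle, −0.79 to 0.0268 for Hmox1 in heart minus tongue, −0.15 to 0.58 for Gdf15 in stomach minus muscle, −0.33 to 1.17 in stomach minus tongue and −0.53 to 0.84 in muscle minus tongue, and −0.33 to 0.0880 for Gclc in muscle minus tongue. Depth limits the precision for Gdf15 outside the heart and Eda2r in the stomach, with at most 41 counts in a sample.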
